A study of Arabidopsis thaliana with 50 samples.

Results

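Loss of MORC1 was followed in whole Arabidopsis seedlings by comparing 4 *morc1* samples with 4 samples of a wild type that carries a reporter transgene. These are 8 of the 50 RNA-seq samples of the series. The members were chosen by their sample labels alone: *morc1* replicates 1 to 4, which served as controls for *morc1/med13*, and *SDC:GFP* wild type replicates 1 to 4. All plants were 8 days old, of the Columbia-0 ecotype, and 5 whole seedlings were combined for each replicate. The wild type labels name *SDC:GFP*, a green fluorescent protein gene driven by the SDC promoter. The *morc1* labels do not name it, and that these samples carry it was inferred from the lines the paper describes. The transgene was first put into a *drm1/drm2/cmt3* (*ddc*) triple mutant. That plant was then crossed with Col-0 and with the T-DNA insertion allele *morc1-4*, and the resulting lines are taken here as the pair compared. As a model of MORC1 loss the comparison rests on 1 insertion allele and on lines taken to descend from separate crosses. Anything the crosses left behind apart from MORC1 cannot be told apart from the mutation, nor can the transgene if the *morc1* samples lack it. The 3 other *morc1* samples of the series (replicates 5 to 7, controls for *morc1/med12*) and 4 Col-0 samples without the transgene are used below only where their levels bear on a result. Levels in *ddc*, *med13* and *morc1/med13* samples are also given for a few genes. In addition, 1 alternative fit takes in all groups taken to carry the transgene, called below all groups with the transgene.

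MORC proteins are GHKL-type ATPases that compact chromatin. In Arabidopsis they keep transposons and DNA-methylated genes silent, largely without removing the methylation itself. MORC1, also known as CRT1, was found as well in screens for resistance to a virus, and MORC proteins have been tied to plant immunity. SDC is an F-box gene that DNA methylation over a tandem repeat in its promoter keeps off in most vegetative tissues. Abscisic acid (ABA), the other theme of the results, is the hormone of drought and seed dormancy: its receptors block clade A type 2C protein phosphatases, which frees SnRK2 kinases to switch on target genes through factors that bind ACGTG-containing elements.

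The sequences that define the allele and the reporter are shown first. The genotyping primers of *morc1-4* lie 1152 bases apart from end to end in MORC1 (AT4G36290, TAIR10.1 chromosome 4, 17169385 to 17173361, minus strand). The left primer matched chr4:17169996-17170016 on the plus strand, within exon 16 of 18, and the right primer chr4:17171127-17171147 on the minus strand, partly in exon 11, so they bracket the 3′ part of the gene.
morc1-4 left primer: cgtatctcagccgctaacttg
morc1-4 right primer: aagcagctgcagtggattatg

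The tandem repeat upstream of SDC spans 187 bases at chr2:7681903-7682089 on the plus strand, from 259 to 73 bases before the annotated gene start, with a period of 32 bases and 5 whole units. The units are printed in order, with capitals at the bases that differ from the consensus of the 5, and they show how alike the copies are: the fourth has 0 differences and the first, farthest from the gene, has 5.
SDC repeat unit 1: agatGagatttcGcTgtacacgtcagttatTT
SDC repeat unit 2: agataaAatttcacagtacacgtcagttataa
SDC repeat unit 3: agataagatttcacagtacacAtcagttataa
SDC repeat unit 4: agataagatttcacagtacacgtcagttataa
SDC repeat unit 5: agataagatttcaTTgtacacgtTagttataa

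The targeted gene was measured first. MORC1 is counted over its whole length, so reads outside the insertion remain. In wild type MORC1 stood at 34.6, 35.8, 34.7 and 30.2 CPM (counts scaled to a common library size), and in *morc1* at 20.9, 22.8, 24.4 and 23.0 CPM. The groups did not overlap, and the fitted log2 fold change was -0.57 ± 0.09 (SE, n = 4 per group; adjusted p = 1.4e-04), a 1.48-fold lower level that stops just short of the 1.5-fold threshold used for calls. Without wild type replicate 4 it was -0.62, and without *morc1* replicate 3 it was -0.60, both past that threshold. MORC2, the closest relative of MORC1, lies just downstream of it on the same minus strand, with its gene start at position 17169375. MORC2 fell further. Its levels were 15.3, 13.4, 14.3 and 9.19 CPM in wild type and 3.44, 6.39, 4.41 and 2.3 CPM in *morc1*, without overlap, a log2 fold change of -1.64 ± 0.24 (adjusted p = 6.0e-05). Of all runs of 50 bases in their exons, 2.26% of MORC1 and 4.72% of MORC2 also occur elsewhere in the genome, so few reads could be shared between the genes. MORC4, MORC6 and MORC7 were at log2 values of -0.24, 0.03 and 0.07, none of them called, and MORC5 was not tested.

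Depth was even across the 8 samples: 3222705 to 3492942 counts in wild type (median 3457075.5) and 3442897 to 3639140 in *morc1* (median 3494850), where 3 counts equal 0.882 and 0.859 CPM. Pearson's correlation of log levels across genes, which are not independent replicates, was 0.985 to 0.988 among wild type samples, 0.983 to 0.987 among *morc1* samples and 0.972 to 0.978 between the groups, and the first principal component, 40.8% of the variance, separated them. The paper describes each replicate as its own RNA extraction from 5 combined seedlings, and all plants as grown and harvested together. The p-values therefore measure the spread between seedling pools of 1 growth, and the spread between separate growths was not measured. The tissue markers fit a seedling: all 21 leaf genes and all 20 root genes had 3 counts or more in every sample. Summed leaf markers were 4090 to 4410 CPM in wild type and 4050 to 4230 CPM in *morc1*, while summed root markers were 1040 to 1080 CPM in wild type and 949 to 983 CPM in *morc1*, without overlap. Summed seed markers (17 genes) were 16.0 to 19.0 CPM in wild type, with SESA1 and LEC1 at 0, and 39.1 to 130 CPM in *morc1*, with SESA1 at 0. Pollen and flower markers (13 genes) were 11.9 to 21.8 and 16.1 to 18.7 CPM, with TIP1;3 at 0 in both groups and STK and TIP5;1 at 0 in *morc1*.

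Changes ran in both directions and were mostly modest. A gene was called when it differed more than 1.5-fold with an adjusted p under 0.05 (edgeR's quasi-likelihood test, Benjamini-Hochberg adjustment over all 19273 genes and transposable elements (TEs) tested). By this rule 230 rose in *morc1* (1.19% of those tested) and 265 fell (1.37%). Most calls were small: 149 of the rises and 166 of the falls lay between 1.5-fold and 2-fold, and 21 rises against 12 falls passed 4-fold. Groups did not overlap for 200 of the rises and 232 of the falls. Among all 19273 features tested, *morc1* lay wholly above wild type for 8.70% and wholly below it for 8.00%. Protein-coding genes made up 220 of the rises and 255 of the falls. TEs had little part in either direction at this depth: 39 were tested, and 1 rose and 1 fell. In a single fit over all groups with the transgene, which shares 1 estimate of spread, the counts were 77 and 69, of which 71 and 67 were among the calls above.

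**Figure D1:**
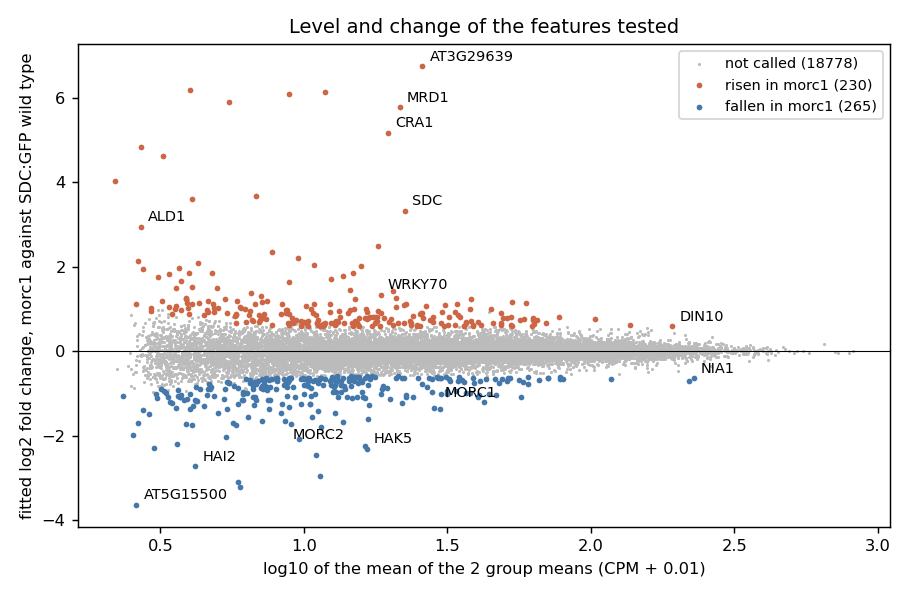
Fitted log2 fold change of *morc1* against *SDC:GFP* wild type (y axis) by level (x axis, log10 of the mean of both group means in CPM) for all 19273 genes and TEs tested. Orange points are the 230 that rose and blue points the 265 that fell; a few rises from near zero reach log2 values of 5 to 7, while no fall passes -3.63.

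The largest rises came from genes that were all but silent in wild type and lie in a few short stretches of chromosome. AT3G29639, an uncharacterized protein gene on chromosome 3 (11478633 to 11480033, minus strand), had 0.624, 0.291, 0.573 and 0.287 CPM in wild type and 48.1, 57.8, 49.1 and 50.3 CPM in *morc1*. Measured against 3 counts per sample, the smallest amount resolved, it was at least 58.2-fold higher (adjusted p = 1.3e-15). AT3G29631, annotated as a nuclease and 7811 bases away on the same strand, went from 0.312, 0, 0.573 and 0.287 CPM to 22.6, 21.7, 23.8 and 25 CPM, at least 26.4-fold higher. The pair thus moved from at most 2 counts in any wild type sample to steady expression in all 4 *morc1* samples. Part of their sequence is not unique: 16.1% of the 50-base runs of AT3G29639 and 5.01% of those of AT3G29631 also occur elsewhere, so their counts may include reads from copies.

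The same happened to 3 adjacent genes on chromosome 1, which sit within 5 kilobases on the plus strand with gaps of 1589 and 11 bases. AT1G36675, a glycine-rich protein gene, had 0, 0, 0.573 and 0.287 CPM in wild type and 20.3, 18.3, 16.7 and 14.4 CPM in *morc1*. AT1G36680, annotated as a pseudogene, had a wild type count only in replicate 3 (0.286 CPM), and 8.59, 8.06, 7.05 and 8.05 CPM in *morc1*. AT1G06993, annotated as a non-coding RNA, had 0, 0, 0.286 and 0.287 CPM in wild type and 11.2, 12.2, 8.81 and 10.9 CPM in *morc1*. They were at least 19.8-fold, 9.0-fold and 12.2-fold higher. The counting used strand, yet reads that run from 1 of these genes into the next cannot be told apart from separate transcripts. The fitted values leaned on wild type replicate 3, the sample with most of the few counts: without it the log2 fold change of AT1G36675 was 7.02 in place of 6.09 and that of AT1G36680 was 7.78 in place of 6.18.

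Smaller loci of the same kind followed. AT2G10975, an uncharacterized protein gene, was at least 5.93-fold higher, and AT4G04293, annotated as a pseudogene, at least 4.71-fold higher. Both had at most 1 count in any wild type sample. The TE that rose, AT4TE04415, had 0, 0, 0.573 and 0.287 CPM in wild type and 5.73, 6.95, 7.35 and 4.89 CPM in *morc1*, at least 7.06-fold higher. On chromosome 5, the neighbours AT5G35480 and MRU1, 220 bases apart, rose from a low level that was not zero: AT5G35480 from 4.99, 5.24, 8.88 and 5.75 to 27.2, 24.7, 24.7 and 24.4 CPM, and MRU1 from 3.43, 4.66, 8.59 and 6.32 to 19.5, 18.6, 17.9 and 20.4 CPM. In both genes wild type replicate 3 was the highest control.

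SDC itself, the endogenous gene of the reporter (AT2G17690, chromosome 2, 7682162 to 7684083, plus strand), had 1.25, 4.37, 7.45 and 2.87 CPM in wild type and 41.5, 42.8, 38.2 and 41.7 CPM in *morc1*. The log2 fold change was 3.33 ± 0.19, a 10.1-fold rise (adjusted p = 1.5e-10). The *morc1* samples were tightly grouped, whereas the wild type samples spanned 1.25 to 7.45 CPM. Whether reads of the transgene enter this count was not tested. FWA and QQS, the other genes fixed as known targets of methylation-dependent silencing, had too few counts to be tested. MRD1 (AT1G53480, chromosome 1, 19963047 to 19964712) had 0.312, 0, 0.286 and 2.3 CPM in wild type and 40.7, 37.8, 47.0 and 44.3 CPM in *morc1*, a log2 fold change of 5.78 ± 0.27. Without wild type replicate 4, the sample at 2.3 CPM, it was 7.50. MRD1 overlaps HEI10 on the opposite strand, and HEI10 was called as well. The machinery that writes, reads and erases DNA methylation runs from the methyltransferases MET1, CMT2, CMT3 and DRM2 to the demethylase ROS1. Of its 29 tested members 0 were called by edgeR in either direction, with log2 values between -0.28 and 0.38. Over all features tested 1.19% rose and 1.37% fell, so a count of 0 does not set this list apart. At any fold, 1 was higher and 1 lower at an adjusted p under 0.05, where 6.31% of all genes tested were higher and 5.36% lower. At an unadjusted p under 0.05 there were 2 in each direction, and DESeq2 called 0.

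**Figure D2:**
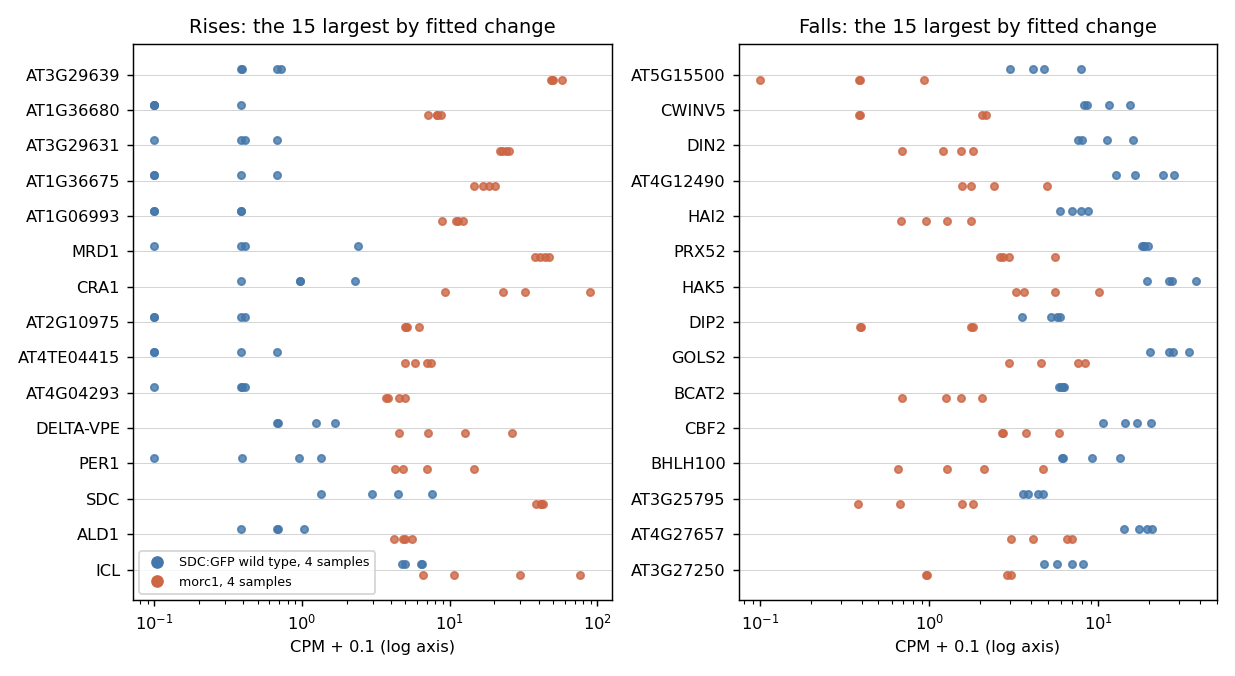
Level in each of the 8 samples (x axis, CPM + 0.1 on a log axis) for the 15 largest rises (left) and 15 largest falls (right) whose groups do not overlap; blue points are *SDC:GFP* wild type and orange points *morc1*. AT3G29639 and its companions start under 1 CPM and end in tight groups, whereas CRA1, ICL, DELTA-VPE and PER1 spread widely among the *morc1* samples.

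CRA1, a cruciferin that is stored in seeds, rose with a quite different pattern, unevenly from sample to sample. Of the 17 genes fixed as seed markers 3 were tested, and CRA1 was the 1 that rose, while OLEO4 and DOG1 had log2 values of 0.03 and 0.16. CRA1 passed the low-count filter through *morc1* alone. The count was not firm: DESeq2 and the fit without the low-count filter each called 4 as risen, 2 rose without any 1 of the wild type samples or without *morc1* replicate 1, and 0 rose in the fit over all groups with the transgene. The other genes of seed and oil breakdown described here belong to no seed list and were picked after their values had been seen. CRA1 had 2.18, 0.874, 0.286 and 0.862 CPM in wild type and 32.4, 22.8, 9.11 and 88.8 CPM in *morc1*. DELTA-VPE, a protease of the seed coat, had 1.56, 0.582, 0.573 and 1.15 CPM against 12.6, 4.45, 7.05 and 26.4 CPM. PER1, a peroxiredoxin of the embryo and aleurone, had 1.25, 0.291, 0.859 and 0 CPM against 6.87, 4.17, 4.70 and 14.4 CPM. In these 3 genes *morc1* replicate 4 was highest. Without it the log2 fold change of CRA1 went from 5.17 to 4.34 and that of DELTA-VPE from 3.67 to 3.02, and without wild type replicate 1 that of CRA1 was 5.76. These moved with the summed seed markers given above (39.1 to 130 CPM in *morc1*, of which CRA1 is a member), and the part of residual seed tissue in them was not tested. In whole seedlings, fewer or more cells of a type cannot be told apart from less or more RNA per cell.

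ICL (isocitrate lyase) and MLS (malate synthase), the enzymes particular to the glyoxylate cycle by which a germinating seedling turns oil into sugar, both rose. ICL stood at 4.68, 6.41, 6.30 and 4.88 CPM in wild type and 10.6, 76.2, 6.46 and 29.9 CPM in *morc1*, and the lowest *morc1* sample barely cleared the highest control. Its log2 fold change of 2.48 ± 0.59 (adjusted p = 0.0064) was 1.49 without *morc1* replicate 2. MLS went from a mean of 12.3 ± 2.70 to 21.6 ± 5.79 CPM (SD, n = 4; log2 fold change 0.82, adjusted p = 0.0032). The late-embryogenesis protein LEA18 and the beta-glucosidase BGLU19 rose with them, by log2 values of 1.51 and 2.2. BGLU19 was 10.9, 2.50, 9.70 and 39.7 CPM in *morc1* against 2.04 to 4.30 CPM in wild type, again highest in replicate 4 and overlapping between groups.

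Several genes of salicylic acid defence rose, though not the whole pathway. Salicylic acid is made through ICS1 and read by NPR1, and WRKY70 and CBP60G are transcription factors on this route. Of the 26 genes fixed for the pathway, 12 were tested, 5 rose and 0 fell, with a median log2 value of 0.24. Over all features tested 1.19% rose. ALD1, with at most 3 counts in any wild type sample, passed the low-count filter through *morc1* alone, which favours rises in this count. In each fit that left out 1 sample 5 rose, and 2 rose in the fit over all groups with the transgene. ALD1, which makes the precursor of the systemic immune signal pipecolic acid, had 0.936, 0.582, 0.286 and 0.575 CPM in wild type and 5.44, 4.73, 4.11 and 4.89 CPM in *morc1*, at least 5.43-fold higher. WRKY70 had 15.6, 11.4, 8.59 and 6.61 CPM against 30.9, 24.5, 25.3 and 25.3 CPM, a log2 fold change of 1.34 ± 0.17 (adjusted p = 9.7e-06). CBP60G, the calmodulin-binding activator of ICS1, had 3.74, 4.08, 6.02 and 3.73 CPM against 13.7, 7.51, 9.99 and 8.33 CPM. None of these overlapped between the groups. The antimicrobial PR5 and the glutaredoxin GRXS13 rose by log2 values of 0.70 and 0.69. ICS1 itself was at 37.8 to 41.9 CPM in wild type and 37.5 to 43.1 CPM in *morc1*, and EDS1, PAD4 and NPR1 had log2 values of 0.07, -0.06 and -0.01, none called.

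Receptor families of immunity were represented among the rises as well. These families, like the others named below by gene family, were picked after their values had been seen, so their counts are a description. Each count is to be read beside the shares over all features tested, 1.19% risen and 1.37% fallen. Of 22 tested cysteine-rich receptor-like kinases 5 rose and 0 fell, among them CRK14 and CRK12 in 1 cluster on chromosome 4. CRK14 had 2.81, 3.79, 3.44 and 4.31 CPM in wild type and 10.3, 10, 9.40 and 8.05 CPM in *morc1*. Of 85 tested TIR-domain resistance genes, intracellular receptors for pathogen effectors, 6 rose and 1 fell. The strongest was AT1G66090, with 2.81, 3.20, 2.01 and 2.01 CPM against 15.8, 10.3, 13.2 and 12.6 CPM, a log2 fold change of 2.36 ± 0.23 (adjusted p = 4.6e-07). Of 46 tested WRKY factors 3 rose, namely WRKY70, WRKY53 and WRKY22. The last of these counts was unsteady: 1 rose in each of the fits without wild type replicate 3, wild type replicate 4 or *morc1* replicate 1.

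Some genes of auxin-driven growth rose, while most members tested did not pass. SAUR proteins are small, short-lived proteins that acidify the cell wall and let cells expand. Of 42 tested genes annotated as SAUR-like, 9 rose and 0 fell, 23 had positive log2 values and the median was 0.07. The shares over all features tested were 1.19% risen and 1.37% fallen. In the auxin list, 14 of 18 genes were tested, and the 4 that rose were all SAURs. Of these, SAUR19 and SAUR22 passed the low-count filter through *morc1* alone. SAUR19 had 0.936, 0.874, 1.15 and 1.44 CPM in wild type and 4.58, 4.73, 4.41 and 3.74 CPM in *morc1*, a log2 fold change of 1.95 ± 0.32 (adjusted p = 2.2e-04). SAUR22, from the same chromosome 5 cluster, had 0.936, 0.582, 2.86 and 2.3 CPM against 7.16, 4.45, 7.93 and 5.46 CPM. Near-identical copies limit what single SAURs can show: 18.5% of the 50-base runs of SAUR19 and 27.1% of those of SAUR63 occur elsewhere. SUC5, a sucrose carrier, and BT2, a BTB-domain scaffold that responds to nitrogen and sugar, rose too. BT2 went from 32.1, 44.6, 27.5 and 26.7 to 80.5, 60.6, 79.9 and 73.3 CPM.

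A minority of touch genes and heat-shock chaperones rose, by modest amounts. Of 16 tested genes of touch and rapid stress 4 rose and 1 (ZAT12) fell, where 1.19% of all features tested rose and 1.37% fell. TCH3, a calmodulin-like calcium sensor, had 44.0, 45.1, 28.6 and 30.5 CPM in wild type and 99.1, 73.1, 74.3 and 81.0 CPM in *morc1* (log2 fold change 1.15 ± 0.11, adjusted p = 5.8e-07), although 6.71% of its 50-base runs occur elsewhere. TCH4, a xyloglucan-modifying enzyme of the wall, had 41.8, 44.8, 31.2 and 32.2 CPM against 77.3, 51.2, 67.6 and 63.2 CPM. The zinc finger gene SZF1 overlapped between groups, with 33.9 to 70.5 CPM against 68.9 to 88.5 CPM. Of 11 tested heat-shock genes 3 rose and 0 fell, and all 11 had positive log2 values, with a median of 0.35. HSP90-1, a cytosolic chaperone, had 34.0, 38.2, 37.5 and 34.5 CPM against 58.7, 62.0, 63.2 and 66.4 CPM, a log2 fold change of 0.79 ± 0.07 (adjusted p = 5.5e-08). HSP23.5, a mitochondrial small heat-shock protein, had 14.7, 11.4, 10.3 and 9.48 CPM against 17.8 to 24.4 CPM. In the fit over all groups with the transgene 0 heat-shock genes and 1 touch gene rose, and DESeq2 called 3 and 2 as risen.

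Among strongly expressed genes the rises touched sugar, proline and lipid metabolism. DIN10, a raffinose synthase family member, had 155, 180, 143 and 134 CPM in wild type and 264, 212, 219 and 232 CPM in *morc1*, a rise of 1.51-fold. The gene lay at the threshold: its log2 fold change fell under it without wild type replicate 3 (0.57), wild type replicate 4 (0.54) or *morc1* replicate 1 (0.53). XPL1, the phosphoethanolamine methyltransferase of phosphatidylcholine synthesis, had 103 to 114 CPM against 149 to 175 CPM. The proline dehydrogenase gene AT3G30775, which starts proline breakdown, had 70.5, 91.4, 75.3 and 67.5 CPM against 140, 122, 121 and 137 CPM, a log2 fold change of 0.77 ± 0.07 (adjusted p = 2.1e-07). TPS11, a trehalose-phosphate synthase homologue, had 51.5, 71.6, 47.6 and 53.7 CPM against 86.2 to 106 CPM. The RING zinc finger gene AT5G22920 completed the group at 48.4 to 64.4 CPM against 74.8 to 95.7 CPM.

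The falls began with ABA. A gene of its synthesis, 3 phosphatases that hold back its signal and 2 proteins that bind ABI5 fell in *morc1*, while 1 gene of its breakdown rose. NCED3, the rate-limiting step of ABA synthesis under drought, had 38.1, 39.0, 48.1 and 39.9 CPM in wild type and 14.0, 27.8, 22 and 22.1 CPM in *morc1*, a log2 fold change of -0.94 ± 0.13 (adjusted p = 2.9e-05). CYP707A3, which hydroxylates ABA for breakdown, rose from 7.49, 4.37, 6.02 and 5.46 to 13.5, 12.8, 12.3 and 7.47 CPM, where wild type replicate 1 and *morc1* replicate 4 overlapped. It was the 1 of 4 tested ABA 8′-hydroxylases that rose. CYP707A2 went the other way, with a log2 fold change of -0.57 ± 0.14 (adjusted p = 0.0074) that was short of the threshold, and was called as fallen without wild type replicate 1 or without *morc1* replicate 1. CYP707A1 and CYP707A4 had log2 values of -0.05 and -0.26. The other 4 tested genes of synthesis had log2 values between -0.20 and -0.02 and were not called. Of 9 tested receptors 1 rose: PYL5 had 22.1 to 36.7 CPM against 37.0 to 51.8 CPM, a log2 fold change of 0.70 ± 0.12. Of the SnRK2 kinases 3 were tested and 0 were called by edgeR or DESeq2, also at an unadjusted p under 0.05.

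Clade A type 2C phosphatases shut the pathway off, and their own genes are switched on by ABA. Of 7 tested, 3 fell and 0 rose, and at any fold 6 were lower at an adjusted p under 0.05. Their median log2 value was -0.54, and without *morc1* replicate 1 the count of falls was 1. Among all features tested 1.37% fell, and 5.36% were lower at any fold. HAI2 had 7.80, 5.82, 8.59 and 6.89 CPM in wild type and 0.859, 1.67, 1.18 and 0.575 CPM in *morc1*. This is a log2 fold change of -2.72 ± 0.31, 6.59-fold lower, with adjusted p = 3.2e-06. HAI1 had 11.9, 16.9, 15.2 and 8.91 CPM against 3.72, 6.95, 10.6 and 8.62 CPM, with overlap, and ABI2 had 35.3, 34.1, 37.2 and 36.5 CPM against 19.5, 24.2, 26.4 and 21.6 CPM. PP2CA, HAB1 and ABI1 were lower by less than 1.5-fold, with log2 values of -0.54, -0.42 and -0.36. AFP1 and AFP3, which bind the ABA-response factor ABI5 and mark it for removal, fell as well: AFP1 from 19.3, 23.0, 21.8 and 19.2 to 6.59, 7.78, 6.46 and 5.46 CPM (log2 fold change -1.66 ± 0.15, adjusted p = 1.6e-07), and AFP3 from 41.2 to 49.3 CPM down to 22.4 to 32.0 CPM.

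Other ABA-inducible genes outside the lists fell beside them. RD20, a caleosin of drought, had 25.9, 21.6, 28.4 and 21.5 CPM in wild type and 6.30, 16.4, 16.5 and 13.5 CPM in *morc1*. PUB19, a ubiquitin ligase of drought response, had 12.9 to 17.5 CPM against 4.89 to 6.12 CPM, a log2 fold change of -1.56 ± 0.17 (adjusted p = 1.8e-06). HIS1-3, a drought-induced linker histone, had 16.0 to 19.0 CPM against 6.12 to 11.8 CPM. None of these overlapped. They were picked after their values had been seen. Of the cold and drought list below, RD29B (log2 value 0.61) rose and RAB18 (-0.15) was not called.

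Promoters of the falls were read for the 5 letters ACGTG, the core of the ABA-response element, on both strands in the window from 250 bases before to 50 bases after the RefSeq gene start (TAIR10.1). The letters occurred in 103 of 255 windows of fallen genes (40.4%), in 64 of 220 of risen genes (29.1%) and in 5261 of 18827 of all genes tested (27.9%). The CCGAC core of the drought and cold element occurred in 14.5% of falls, in 40 of 220 rises and in 16.2% of all, and TTGAC, the WRKY core, in 56.5%, 55.0% and 50.8%. Such matches describe the letters only. The windows of HAI2 (chr1:2282779-2283078, minus strand, 4 matches), AFP1 (chr1:26038655-26038954, plus strand, 2 matches) and RD20 (chr2:14146506-14146805, minus strand, 5 matches, where a CACGTG counts once on each strand) show how the core is placed in genes that fell; capitals mark ACGTG or its reverse complement CACGT. CBF2 and KIN1 held 2 and 1 matches, and the windows of NCED3, HAI1, RD29A, GOLS2 and P5CS1, which fell too, held 0.
HAI2: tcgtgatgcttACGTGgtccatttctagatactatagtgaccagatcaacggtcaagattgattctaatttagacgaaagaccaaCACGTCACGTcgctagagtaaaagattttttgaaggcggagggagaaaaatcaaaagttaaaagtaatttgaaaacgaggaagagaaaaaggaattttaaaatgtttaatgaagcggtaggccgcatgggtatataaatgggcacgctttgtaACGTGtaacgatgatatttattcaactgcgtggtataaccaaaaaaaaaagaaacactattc
AFP1: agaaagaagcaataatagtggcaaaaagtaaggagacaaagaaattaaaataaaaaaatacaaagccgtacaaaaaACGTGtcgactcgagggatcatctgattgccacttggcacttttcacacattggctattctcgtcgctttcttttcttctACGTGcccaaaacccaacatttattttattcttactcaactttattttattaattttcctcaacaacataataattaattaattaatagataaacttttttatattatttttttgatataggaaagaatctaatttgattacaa
RD20: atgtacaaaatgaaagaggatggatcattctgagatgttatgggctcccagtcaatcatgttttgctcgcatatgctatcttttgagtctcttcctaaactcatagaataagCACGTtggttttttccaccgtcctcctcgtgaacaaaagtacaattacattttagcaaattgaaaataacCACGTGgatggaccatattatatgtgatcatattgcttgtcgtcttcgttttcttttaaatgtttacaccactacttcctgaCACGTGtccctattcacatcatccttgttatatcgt

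**Figure D3:**
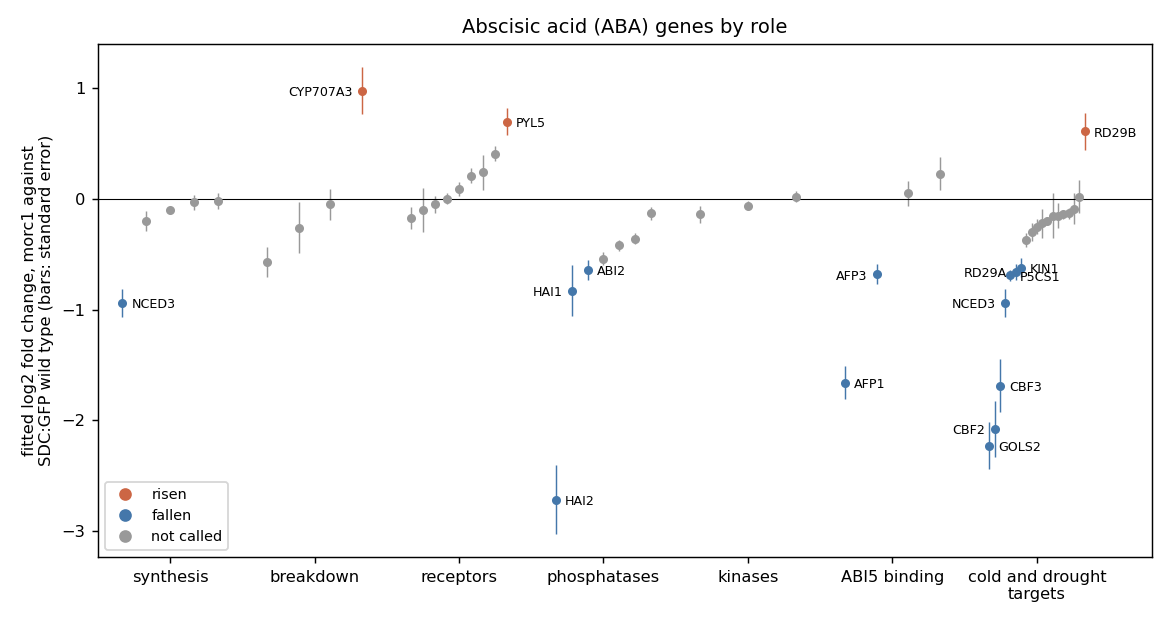
Fitted log2 fold change of *morc1* against *SDC:GFP* wild type (y axis; bars are standard errors) for tested ABA genes grouped by role from synthesis to targets. Orange marks genes that rose, blue genes that fell and grey genes not called; HAI2 at -2.72 is the lowest, and CYP707A3 at 0.98 the highest.

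Some cold and drought genes fell with them. Of 20 genes fixed for this response 19 were tested, 7 fell and 1 rose, with a median log2 value of -0.25. Between 6 and 8 fell when any 1 sample was left out, and 3 fell in the fit over all groups with the transgene. Among all features tested 1.37% fell and 1.19% rose. CBF2 and CBF3, adjacent master regulators of cold acclimation, led the list. CBF2 had 16.9, 20.4, 14.3 and 10.6 CPM in wild type and 5.73, 3.61, 2.64 and 2.59 CPM in *morc1*, a log2 fold change of -2.08 ± 0.25 (adjusted p = 5.3e-06). CBF3 had 9.36, 9.32, 7.74 and 8.04 CPM against 1.72, 3.06, 3.53 and 2.3 CPM. Other members of the list were split. RD29A had 139, 136, 156 and 144 CPM against 75.6 to 105 CPM, and without *morc1* replicate 4 its log2 value of -0.66 became -0.58, short of the threshold. KIN1 had 30.3 to 35.8 CPM against 19.3 to 22.8 CPM, a log2 value of -0.62 that was -0.58 without wild type replicate 3 and -0.57 without *morc1* replicate 4. COR15A and RAB18 had log2 values of 0.02 and -0.15 and were not called. RD29B, 1185 bases from RD29A, was called in the opposite direction, at 7.18 to 11.5 CPM against 12.5 to 16.1 CPM. Its log2 value of 0.61 was 0.58 without wild type replicate 2, 0.51 without wild type replicate 4 and 0.52 without *morc1* replicate 4.

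Transcripts of enzymes that make protective metabolites of these stresses fell too; the metabolites were not measured. Galactinol synthases start the raffinose sugars, and of 4 tested 3 fell, where 1.37% of all features tested fell. GOLS2 had 20, 25.9, 34.1 and 27.6 CPM in wild type and 2.86, 4.45, 8.23 and 7.47 CPM in *morc1*, a log2 fold change of -2.23 ± 0.21, 4.69-fold lower (adjusted p = 3.6e-07). GolS4 had 15.0, 16.0, 20.3 and 13.5 CPM against 6.59, 3.89, 8.81 and 5.17 CPM, and GolS1 59.9 to 68.7 CPM against 34.9 to 48.4 CPM. P5CS1, the rate-limiting enzyme of proline synthesis, had 273, 268, 275 and 273 CPM against 138, 165, 189 and 183 CPM, a log2 fold change of -0.69 ± 0.05 (adjusted p = 3.1e-08). Proline dehydrogenase rose in the same samples, so the transcripts of the synthetic and the degrading enzyme moved in opposite directions.

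Genes of sugar starvation and darkness went both ways. Of 16 tested in the list 4 fell and 3 rose, with a median log2 value of -0.07. The members that rose (DIN10, TPS11 and proline dehydrogenase) are those described above. Among all features tested 1.37% fell and 1.19% rose. DIN2, a beta-glucosidase of senescence, had 15.9, 7.86, 7.45 and 11.2 CPM in wild type and 1.43, 1.11, 0.588 and 1.72 CPM in *morc1*, 8.43-fold lower (log2 fold change -3.08 ± 0.34, adjusted p = 2.3e-06). ASN1, which packs nitrogen into asparagine, had 39.6, 42.2, 41.5 and 48.3 CPM against 18.3, 16.1, 13.8 and 18.7 CPM. BCAT2, a branched-chain amino acid transaminase, had 5.93, 6.12, 5.73 and 6.03 CPM against 1.43, 1.95, 0.588 and 1.15 CPM. MGL, which degrades methionine, and AT1G21400, annotated as a thiamin diphosphate-binding protein, fell too, by 0.64 and 0.93 on the log2 scale. The senescence factors NAP, NAC046 and ORE1 fell, 3 of 4 tested. NAP had 13.1, 15.1, 14.3 and 12.4 CPM against 5.44, 6.39, 6.76 and 4.6 CPM (log2 fold change -1.24 ± 0.17, adjusted p = 3.8e-05). CWINV5, a cell wall invertase, was among the largest falls with 8.43, 8.15, 15.2 and 11.5 CPM against 0.286, 1.95, 2.06 and 0.287 CPM.

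Several more of the larger falls were genes outside the lists, described here after their values had been seen. The largest fall of all called genes without overlap was AT5G15500, an ankyrin repeat gene, with 4.68, 2.91, 7.74 and 4.02 CPM in wild type and 0.286, 0.834, 0 and 0.287 CPM in *morc1*, at least 5.63-fold lower. Its fitted log2 value of -3.63 was -4.41 without *morc1* replicate 2. PRX52, a peroxidase of lignin formation, had 18.1, 19.5, 18.6 and 18.4 CPM against 2.86, 2.50, 2.64 and 5.46 CPM, 5.50-fold lower (log2 fold change -2.46 ± 0.20, adjusted p = 3.1e-08). Of 48 tested class III peroxidases 5 fell and 2 rose, and at any fold 18 were lower and 3 higher at an adjusted p under 0.05. Among all features tested 1.37% fell and 1.19% rose, and at any fold 5.36% were lower and 6.31% higher. HAK5, the high-affinity potassium uptake carrier of roots, had 19.3, 27.1, 37.5 and 26.1 CPM against 3.15, 10, 3.53 and 5.46 CPM. ALMT1, which releases malate from root tips, had 42.1, 63.2, 62.7 and 67.5 CPM against 24.9, 34.8, 28.2 and 28.7 CPM. MRN1, a marneral synthase expressed in roots, and CASP5, a Casparian strip protein of the endodermis, fell by 1.07 and 1.15 on the log2 scale. The falls of HAK5, ALMT1, MRN1 and CASP5 came with the lower sum of root markers given above. Of the 19 tested root markers 0 were called by edgeR or DESeq2, 8 were lower at an unadjusted p under 0.05, 5 were lower at any fold at an adjusted p under 0.05, and all 19 had negative log2 values with a median of -0.22. Up to 2 of them fell when a sample was left out (2 without wild type replicate 4, *morc1* replicate 1 or *morc1* replicate 2, and 1 without wild type replicate 1). The part of root content in these falls was not tested.

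In a row of lipid-transfer-like genes on chromosome 4, 4 of 8 tested fell. AT4G12490 had 27.8, 16.3, 24.1 and 12.6 CPM in wild type and 4.87, 1.67, 1.47 and 2.3 CPM in *morc1*, 7.70-fold lower, with 6.78% of its 50-base runs found elsewhere. AT4G12500 had 31.5, 26.2, 29.8 and 22.1 CPM against 14.6, 17.8, 8.23 and 8.91 CPM. Their neighbours EARLI1 and AZI1, the latter needed to prime systemic immunity, were far more abundant and fell less, EARLI1 from 89.4 to 109 CPM down to 58.1 to 66.7 CPM and AZI1 from 67.8 to 79.4 CPM down to 42.8 to 53.7 CPM. Each called gene was also paired with the next called gene within 10000 bases, skipping any uncalled genes between them. Of 45 such pairs, 33 had the same direction, 16 risen and 17 fallen, where all calls were 230 rises and 265 falls. The pairs include overlapping genes such as MRD1 and HEI10 and copies of the same gene family. The share that unrelated pairs would reach was not tested.

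Nutrient and developmental regulators were mixed. NIA1, nitrate reductase, was the most abundant gene to fall, with 267, 298, 261 and 283 CPM in wild type and 178, 170, 182 and 187 CPM in *morc1* (log2 fold change -0.63 ± 0.04, adjusted p = 1.0e-09). Iron genes went both ways. FIT, the master regulator of iron uptake in the root, rose from 28.4, 14.6, 21.8 and 17.8 to 36.7, 29.5, 31.7 and 39.1 CPM, and BHLH100, a partner of FIT, fell from 13.4, 9.03, 6.02 and 6.03 to 2.01, 0.556, 1.18 and 4.6 CPM. The log2 value of BHLH100, -2.02, was -2.75 without *morc1* replicate 4. The uptake genes they control, IRT1 and FRO2, ranged from 70.1 to 134 and 33.3 to 117 CPM in wild type and from 83.9 to 164 and 70.9 to 166 CPM in *morc1*, and neither was called. SOC1, which promotes flowering, had 60.9, 55.9, 59.6 and 51.1 CPM against 34.1, 35.6, 34.1 and 39.7 CPM, and its relative AGL19 had 6.24 to 8.91 CPM against 2.01 to 3.82 CPM. The B-box factors BBX29, BBX30 and BBX31, small proteins of light signalling, fell while BBX17 rose from 9.19 to 14.3 CPM up to 26.9 to 32.9 CPM. AT4G27657 (14.1 to 20.7 against 2.94 to 6.87 CPM), AT3G27250, DIP2 and the RNA gene AT3G25795 complete the 15 largest falls, with log2 values of -1.80, -1.74, -2.28 and -1.97.

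Several lists held no call at all. By edgeR's test 0 of 21 tested photosynthesis genes, 0 of 19 clock genes, 0 of 21 glucosinolate genes, 0 of 16 flavonoid genes, 0 of 15 phosphate genes and 0 of 5 genes of the CDK8 module were called in either direction. DESeq2 called 0 in each of these lists too. Over all features tested 1.19% rose and 1.37% fell, so a count of 0 does not set lists of this size apart. At an unadjusted p under 0.05 the counts higher and lower were 0 and 1 for photosynthesis, 1 and 5 for the clock, 2 and 10 for glucosinolates, 5 and 0 for flavonoids, 1 and 5 for phosphate and 1 and 0 for the CDK8 module. The share of all features at an unadjusted p is not given here, so these counts cannot be set against it. The median log2 value of photosynthesis genes was -0.02. Most of them are highly expressed, and duplicate removal compresses the folds of such genes, so a value near 0 does not show them unaffected. When 1 sample was left out, calls appeared in 3 of these lists. In the clock list 2 fell without *morc1* replicate 2. In the flavonoid list 2 rose without wild type replicate 3, and 1 rose without wild type replicate 1, *morc1* replicate 1 or *morc1* replicate 4. In the phosphate list 1 fell without wild type replicate 3 or without *morc1* replicate 1.

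**Figure D4:**
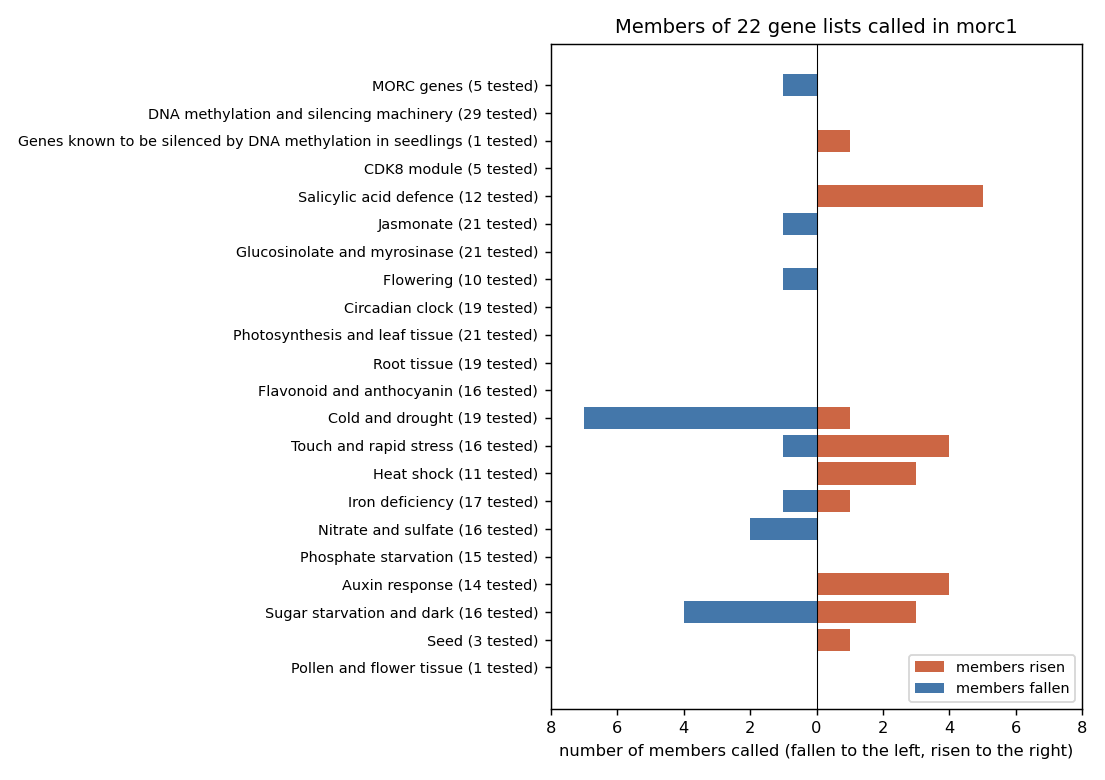
Number of genes called in each gene list (x axis; fallen to the left in blue, risen to the right in orange), with the number tested in brackets beside the name. Cold and drought has the most falls (7) and salicylic acid defence the most rises (5), while photosynthesis, clock and silencing machinery have none. Over all features tested 1.19% rose and 1.37% fell, so lists of this size often hold none.

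The levels in other samples set these changes in context. The series was scaled together for this, so values differ slightly from those above. The silent loci were under 1 CPM on average in both wild types. AT3G29639 was at 0.614 ± 0.376 CPM in Col-0 (SD, n = 4) and 0.466 ± 0.190 in *SDC:GFP* wild type, and at 54.0 ± 4.82 in *morc1*, 50.4 ± 2.31 in *morc1* replicates 5 to 7 (n = 3) and 40.8 ± 4.96 in *ddc*. The other members of these loci ranged on average from 0 CPM (AT2G10975) to 0.816 ± 0.481 CPM (AT4TE04415) in Col-0, and AT4TE04415 was at 0.225 ± 0.287 CPM in *SDC:GFP* wild type. SDC differed between the wild types, at 0.403 ± 0.279 CPM in Col-0 (highest 0.809) and 4.17 ± 2.76 CPM in *SDC:GFP* wild type (lowest 1.32), without overlap. It was at 43.2 ± 2.06 CPM in *morc1* and 362 ± 28.2 CPM in *ddc*. The log2 fold change of SDC was therefore 6.66 with Col-0 as the control, in place of 3.33. Col-0 lacks the transgene, and the part of its reads in this gap was not tested. MRD1 was not steady outside the comparison, at 3.91 ± 5.75 CPM in Col-0 and 48.2 ± 1.70 in *med13*. MORC2 was low in both *morc1* sets, at 4.36 ± 1.84 and 2.80 ± 0.642 CPM, and between 16.3 and 18.6 CPM in Col-0.

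Many changes in both directions depended on which wild type was used. HAI2 was at 7.63 ± 1.26 CPM in *SDC:GFP* wild type, above the 1.84 ± 0.825 CPM of Col-0 and the 1.13 ± 0.497 CPM of *morc1*. GOLS2 was at 28.2 ± 6.03, 8.29 ± 5.31 and 6.06 ± 2.67 CPM in that order, NCED3 at 43.3 ± 4.79, 11.3 ± 1.46 and 22.6 ± 6.04 CPM, and CBF2 at 16.3 ± 4.29, 0.577 ± 0.361 and 3.83 ± 1.53 CPM. For these genes the transgenic wild type stood highest of the 3 groups. ASN1 and BCAT2 differed the other way, with 229 ± 11.2 and 94.0 ± 1.87 CPM in Col-0 against 45.0 ± 3.88 and 6.24 ± 0.170 CPM in the transgenic wild type. Among the rises, DELTA-VPE was at 1.01 ± 0.507 CPM in *SDC:GFP* wild type, 10.1 ± 3.35 CPM in Col-0 and 13.3 ± 10.3 CPM in *morc1*, and its log2 value of 3.67 became 0.41 with Col-0 as the control, which was not called. Proline dehydrogenase was at 79.9 ± 10.9, 224 ± 11.6 and 137 ± 9.87 CPM and BBX17 at 13.0 ± 2.29, 64.2 ± 2.94 and 31.1 ± 2.71 CPM in the same order, so that both stood highest in Col-0. Against Col-0, *morc1* had 2442 rises and 2252 falls, and all 21 photosynthesis genes were among the rises, so Col-0 and the transgenic wild type were not interchangeable as controls. The depth of the Col-0 samples is not given here. Duplicate removal limits the counts of abundant genes, and the part of depth in these rises was not tested.

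**Figure D5:**
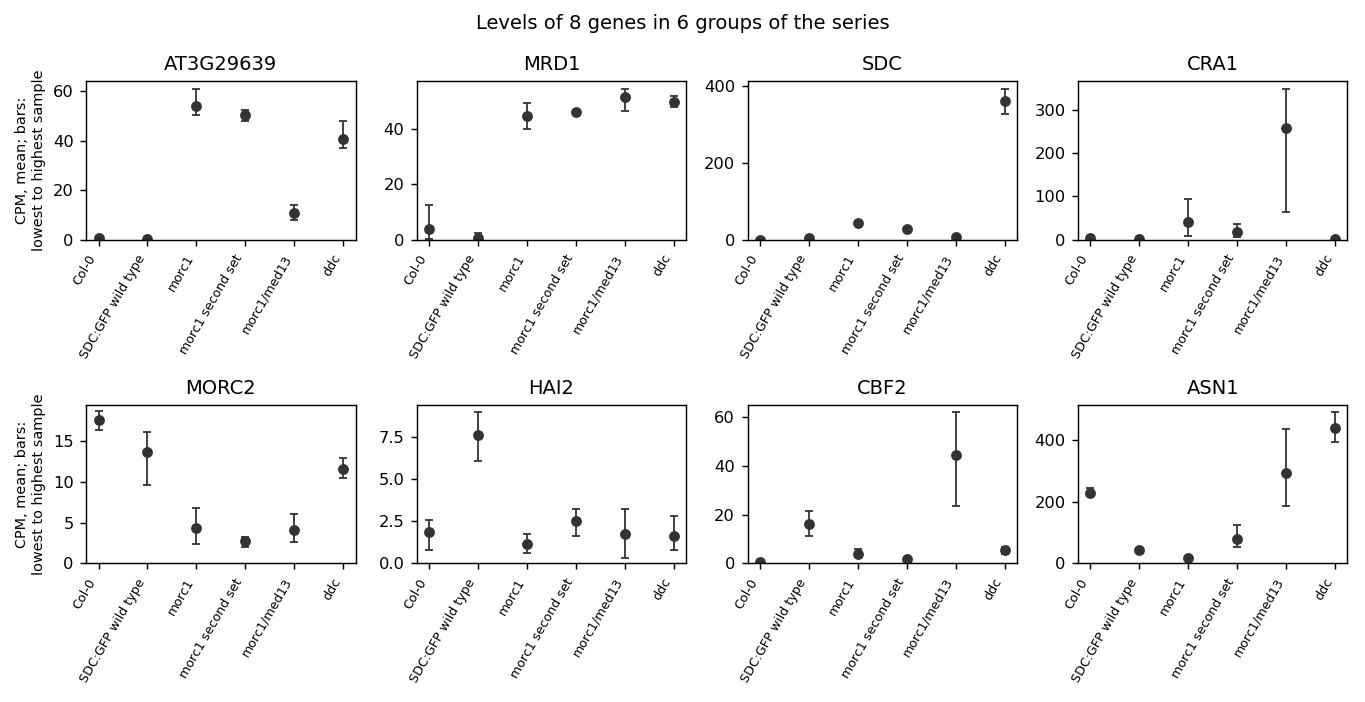
Level (y axis, CPM; points are means and bars run from the lowest to the highest sample) of 8 genes in 6 groups of the series scaled together. AT3G29639 is near 0 in both wild types and high in both *morc1* sets, whereas HAI2 is high in *SDC:GFP* wild type alone among these 6 groups and ASN1 is low in *SDC:GFP* wild type and *morc1*.

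A separate contrast was available for the same mutation, *morc1* replicates 5 to 7 against Col-0, which shares no sample with the comparison. It was added after the data had been seen, and its wild type lacks the transgene. Its groups also differed in clock genes, of which 9 rose and 1 fell there and 0 were called in the comparison. Among those that rose were LNK1 (log2 value 5.30), GI (4.29) and CCA1 (2.76). Whatever else sets these groups apart cannot be told apart from the mutation. There 7.04% of 20436 genes rose and 6.40% fell. Of the 230 rises 223 could be tested there, and 89 rose (39.9%) while 31 fell (13.9%). Of the 265 falls 249 could be tested, and 32 fell (12.9%) while 54 rose (21.7%). The rises thus recurred at well above the background share and the falls at 12.9% against 6.40%, with more of the falls going up than down. Of the 37 genes named by rule that rose, 35 could be tested there, of which 23 rose, 1 fell and 11 were not called. Of the 30 named falls 26 could be tested, of which 6 fell, 6 rose and 14 were not called. Those that rose again include AT3G29639 (log2 value 6.32), AT3G29631 (6.45), SDC (5.98), MRD1 (3.53), ALD1 (1.79) and WRKY70 (2.49), and the 1 that fell was proline dehydrogenase (PDH2-proDH, -0.69). The 6 that fell again were MORC2 (-2.65), ASN1 (-1.52), BCAT2 (-3.76), DIN2 (-1.07), PRX52 (-1.35) and SEN1 (-0.98). The 6 falls that rose there were AT5G15500 (5.92), CWINV5 (3.96), AT1G73480 (1.83), RD29A (0.88), VSP2 (0.83) and KIN1 (0.82). Of the genes described above beyond that rule, AFP1 (-0.76) fell again, AGL19 (1.40) and RD20 (1.06) fell in the comparison and rose there, and MLS (-0.90) and BBX17 (-0.61) rose in the comparison and fell there. DELTA-VPE (-0.60), ICL (0.08), HAI2 (0.46), NCED3 (0.07), GOLS2 (-0.35) and HAK5 (-0.16) were not called there.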

How the data were processed

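RNA was measured in whole seedlings, and the 8 samples compared are described above. The authors trimmed single-end reads of strand-specific mRNA libraries with Trim Galore, mapped them on the TAIR10 genome with STAR, discarded duplicates with Picard and counted the rest on Araport11 genes and TEs with HTSeq 0.6.1, and they deposited whole-number counts without normalization. Duplicate removal keeps 1 read per start position, which compresses the folds of highly expressed genes. The files hold 68527 features, of which 41615 had no count in these 8 samples. Reads on no single feature, 3.99% to 5.14% per sample, were left out of library sizes. Coordinates and sequences are from RefSeq (TAIR10.1).

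Counts were analysed in R 4.3.3 with edgeR 4.0.16 (filterByExpr, TMM, glmQLFit and glmQLFTest, no covariate), and DESeq2 1.42.0 as an alternative. The low-count filter keeps a gene that is high enough in 1 group alone. List members near zero in both groups therefore drop out, while those near zero in 1 group stay in, which favours calls in the list counts. p-values were adjusted by Benjamini-Hochberg over all features tested. The standard error is the size of the log2 fold change divided by the square root of F. "At least" folds are against 3 counts per sample, and these bounds cover counting error only. Every pair of replicates within a group differed in 6 to 115 genes (exact binomial tests), so no replicate had counts copied from another. The chi-square per degree of freedom over all genes was 0.864 to 0.974 among wild type pairs and 0.922 to 1.31 among *morc1* pairs. Over all genes the wild type samples thus differed by no more than counting noise. These tests compare with counting noise alone, so they cannot tell repeat libraries of the same RNA from separate extractions. On simulated counts of this comparison the script was tested with 200 changed genes.

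Named genes are MORC1 and SDC, the 15 largest rises and falls without overlap and with 1 CPM or more as the mean of the higher group, the 5 most abundant calls in each direction, and every called member of the gene lists. Other genes, and the gene families, were chosen after their values were seen. The comparison, lists and members were chosen with earlier results of these data known. Lists also held jasmonate, of which 1 gene (VSP2) fell, seed (given above), pollen and flower, nitrate and sulfate, of which 2 fell (NIA1 and GLN1;4; 1 without wild type replicate 1 or 3 or *morc1* replicate 1 or 3, by DESeq2 1, and 0 in the fit over all groups with the transgene), and flowering, of which 1 of 10 tested fell. Alternatives were DESeq2, RLE size factors, no low-count filter, glmTreat against 1.5-fold, the replicate number as a block, 1 fit over all groups with the transgene, other control or mutant samples, and each sample left out in turn. The other assays of the study were not used here.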

Additional observations from a re-analysis of the deposited data

Results flagged for a closer look

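In 7 of 138 groups of 4 samples examined, 1 sample stood apart from the other 3 by Dixon's test at the 95% level, which chance alone does in about 1 of 20 groups. Among low counts, AT1G36680 was at 0.286 CPM in wild type replicate 3 and at 0 in the others, AT4G04293 was at 0 in wild type replicate 3 and at 0.287 to 0.312 CPM in the others, and MRD1 was at 2.3 CPM in wild type replicate 4 and at 0 to 0.312 CPM in the others. CBP60G was at 6.02 CPM in wild type replicate 3 and at 3.73 to 4.08 CPM in the others. In *morc1*, AT2G10975 was at 6.04 CPM in replicate 4 (4.87 to 5 CPM in the others), PRX52 at 5.46 CPM in replicate 4 (2.5 to 2.86 CPM) and WRKY70 at 30.9 CPM in replicate 1 (24.5 to 25.3 CPM). Each of these genes kept its call without the sample named.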

How the results depend on the processing

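The counts of rises and falls, 230 and 265, were 197 and 187 by DESeq2, 227 and 265 with RLE size factors, 328 and 317 without the low-count filter, and between 208 and 249 rises and between 228 and 289 falls when 1 sample was left out. With DESeq2, 171 of the rises and 181 of the falls were called again. A test against 1.5-fold itself (glmTreat) called 39 and 43, and 1 fit over all groups with the transgene 77 and 69. With Col-0 as the control the counts were 2442 and 2252, with *morc1* replicates 5 to 7 as the mutant 1842 and 1405, and with both, added after seeing the data, 1439 and 1308; the causes were not tested. The replicate number as a block gave 228 and 259, and every named gene kept its call. Samples of the same number did not deviate together (correlations of -0.02, -0.05, 0.04 and 0.03), and only replicate 4 of *morc1* matched its own number best, so the numbers were not taken as pairs.

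Of the 68 named genes 7 lost their call under DESeq2 (SZF1, WRKY53, GLN1;4, SAUR24, VSP2, RD29B and ZAT12) and 33 in the fit over all groups with the transgene. In that fit 2 auxin genes, 3 SAUR-like, 3 TIR-domain and 1 cysteine-rich receptor-like genes rose, 1 clade A phosphatase, 1 galactinol synthase, 1 senescence NAC factor, 1 lipid-transfer-like gene and 4 peroxidases fell, and NCED3, CYP707A3, PYL5, ICL and MLS were not called. When 1 sample was left out, between 3 and 5 lost it, among them WRKY53, GLN1;4, SEN1, ZAT12, VSP2, ROF2, SAUR24 and AT1G73480. VSP2 rested on *morc1* replicate 1, without which its log2 value went from -0.78 to -0.58.

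With Col-0 as the control 18 named genes had the opposite sign. Genes that fell and there had positive log2 values were CBF2 (2.71), AT1G73480 (2.76), KIN1 (1.11), NCED3 (1.02), P5CS1 (0.92), EARLI1 (0.38), RD29A (0.32), GLN1;4 (0.30), AT4G27657 (0.24), ZAT12 (0.13) and VSP2 (0.03). Genes that rose and there had negative values were PDH2-proDH, the proline dehydrogenase AT3G30775 (-0.70), DIN10 (-0.56), AT5G22920 (-0.54), TPS11 (-0.45), TCH4 (-0.39), TCH3 (-0.26) and GRXS13 (-0.08). With *morc1* replicates 5 to 7 as the mutant 11 had the opposite sign: AT5G15500 (1.17), ASN1 (0.86), BCAT2 (0.18), SOC1 (0.13) and VSP2 (0.07) among the falls, and SAUR24 (-0.92), RD29B (-0.64), HSP90-1 (-0.28), HSP23.5 (-0.25), SAUR63 (-0.09) and ROF2 (-0.04) among the rises. The other 43 of the 61 named genes with a value against Col-0 kept their direction, as did the other 54 of 65 with the second set. AT5G15500, CWINV5, HAI2, DIP2, BHLH100, AT3G27250 and CBF3 had no value against Col-0, and ALD1, SAUR19 and SAUR22 none with the second set, since they did not pass the low-count filter there. Genes under 0.882 CPM, or 3 counts, are not resolved at this depth, and a gene that misses the threshold is not shown to be unaffected.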
